A study of Mus musculus with 6 samples.

Results

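Transcript levels of 10 insulin and insulin-like growth factor (IGF) signalling genes were compared between pancreatic islets of Ffar3 knockout (KO) mice and of wild-type (WT) mice. The 10 genes were chosen by name, as Insr, Igf1r, Igf2r, Irs1, Irs2, Grb10, Pik3r1, Akt1, Akt2 and Foxo1, and each was found on 1 of the 23179 gene rows measured by RNA sequencing. Ffar3 encodes a surface receptor that senses short-chain fatty acids and signals through G proteins. The KO islets came from Ffar3-/- mice and the WT islets from wildtype mice. All donors were C57BL/6J males of 10 to 14 weeks, with no treatment named. Each group had 3 libraries, given as biological replicates, and the islets of 2 pancreata were combined for a library. The sources used here do not give how Ffar3 was deleted or in which cells.

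Insulin and the IGFs bind receptor tyrosine kinases on the cell surface. The activated receptors phosphorylate insulin receptor substrate (IRS) proteins, which recruit PI3-kinase and through it switch on the Akt kinases. Akt phosphorylates FoxO transcription factors and so keeps them out of the nucleus, and it also feeds into the mTOR and Gsk3 branches. Beta cells carry this pathway themselves. In mouse islets Irs2 supports beta cell mass and survival, and its transcription responds to cAMP and calcium, while FoxO1 is known there for restraining growth and for a role in stress defence.

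Levels are given in FPKM, which divides fragments by transcript length and depth. Of all rows, 11669 averaged 1 FPKM or more and were tested with limma. All 10 genes passed that filter. Ffar3 itself had 0, 0 and 0.105 FPKM in the 3 KO libraries, against 4.69, 5.26 and 6.68 FPKM in WT replicates 1, 2 and 3. The KO libraries were unlike each other in tissue make-up. The 15 acinar markers, none at 0, summed to 19860, 197000 and 420500 FPKM in KO replicates 1, 2 and 3, against 21150 to 33290 FPKM in the WT libraries. Of the tested endocrine markers, 4 of 10 of beta cells and 3 of 7 of alpha cells fell. So did 1 of 4 of delta and PP cells, and 0 of these markers rose. Of all rows tested, 19.6% were called lower and 20.3% higher. Ins1, listed at 0 in 4 libraries, is counted among the 10 beta cell markers, though its own test is not reported. From the steps between low values, 1 FPKM stood for 59.5% as many fragments in KO replicate 3 as in WT replicate 1, and for 89.4% to 119% in the others. Total depth is unknown. In bulk islets, fewer cells of a type and less RNA per cell cannot be told apart.

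Of the 10 genes, 6 differed between KO and WT: Foxo1, Igf2r, Akt2 and Grb10 rose and Irs2 and Pik3r1 fell. The call was an adjusted p under 0.05 in limma on log2(FPKM + 1), with Benjamini-Hochberg adjustment over all rows tested. By the same rule 39.9% of all tested rows were called, 20.3% higher and 19.6% lower in KO, so a count of 6 is to be read against a broad background. The median of the 10 log2 differences was 0.21, against -0.01 over all rows, and the median absolute difference was 0.26 against 0.22. The 3 KO values lay apart from the 3 WT values for 7 of the 10 genes, against 56.3% of all rows. KO replicate 1 had an acinar sum below each WT library. In it alone the log2 differences of Foxo1, Igf2r, Irs2 and Pik3r1 were 0.54, 0.39, -1.37 and -0.56. Those of the other genes lay between -0.25 (Igf1r) and 0.25 (Irs1). That comparison takes a single KO library to vary like the WT libraries.

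Equal scaling of the libraries outside the 15 acinar markers moved the median difference of all tested rows to -0.25. Under it 0 of the 10 genes were called higher and 2 lower, and the share of calls that were higher was 29.2%, against 50.8% with the values as deposited. The sums so equalised still held the insulin gene Ins1 and digestive enzyme genes beyond the 15 markers, which were high in KO replicates 2 and 3. With those also left out of the sums, chosen after seeing the data, 4 were called higher and 2 lower, and 63.1% of all calls were higher. Relative to the median of all rows, the differences of Irs2, Pik3r1, Foxo1 and Igf2r were -1.78, -0.62, 0.57 and 0.55 with equal sums outside the 15 markers.

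**Figure D1:**
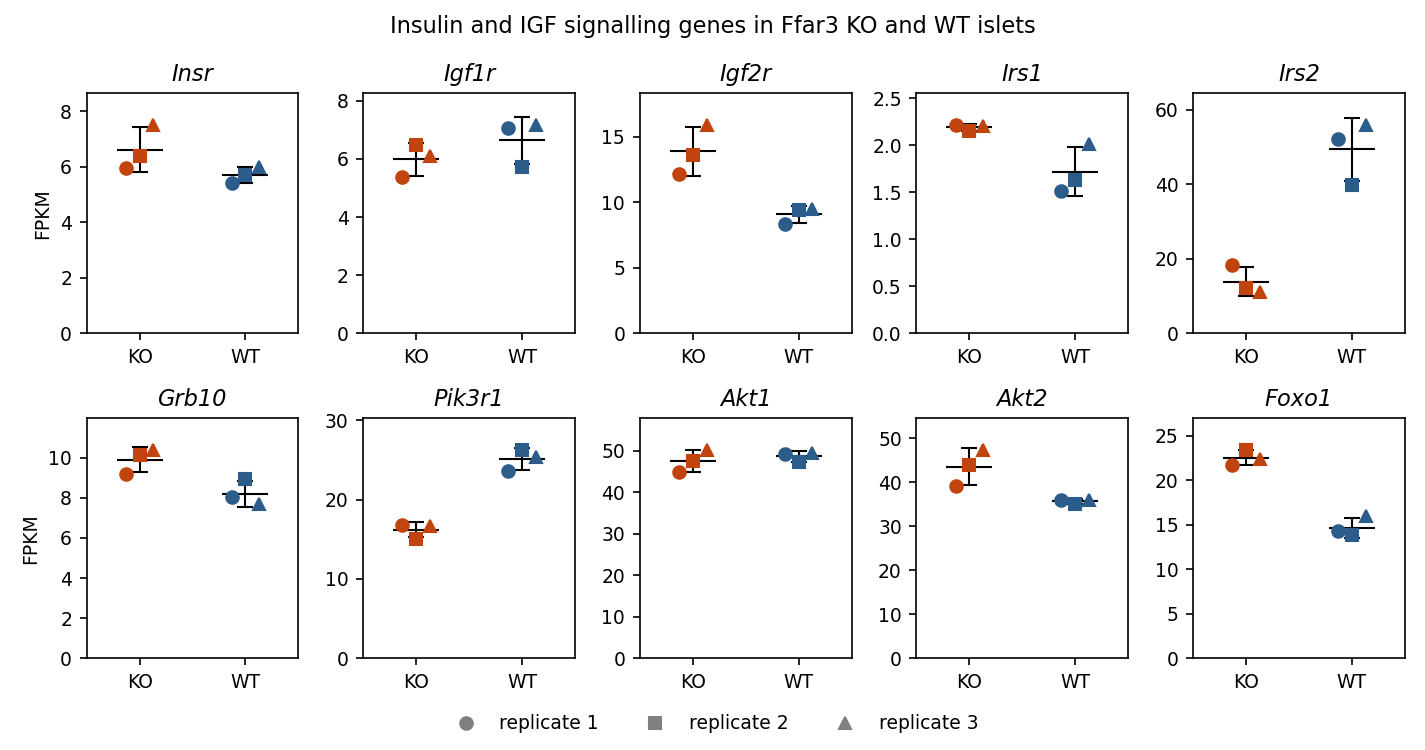
FPKM of the 10 genes in each library, KO left and WT right, with an axis from 0 for each gene. Points are libraries, with the shape giving the replicate number, and bars are the mean and SD of 3 libraries. All KO points lie below all WT points for Irs2 and Pik3r1 and above them for Igf2r, Irs1, Grb10, Akt2 and Foxo1, and the groups overlap for Insr, Igf1r and Akt1.

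Of the 2 IRS adaptors, Irs2 fell and Irs1 did not pass the threshold. Irs2, the main IRS protein of beta cells, had 18.3, 12.3 and 11.1 FPKM in KO replicates 1, 2 and 3, against 52.3, 39.8 and 56.0 FPKM in WT replicates 1, 2 and 3. The highest KO value was thus below the lowest WT value, and KO replicate 1, the library with few acinar transcripts, was the KO library nearest to WT. Its means were 13.9 ± 3.88 FPKM in KO and 49.4 ± 8.47 FPKM in WT (SD, n = 3 each), a 3.55-fold lower level in KO. Irs2 fell with a log2 difference of -1.77 (SE 0.20, limma adjusted p = 0.0013), and the 95% interval ran from -2.23 to -1.31. In KO replicate 1 alone the log2 difference was -1.37 (limma adjusted p = 0.0052), and in the fit with an acinar covariate -1.48 (limma adjusted p = 0.0028).

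Irs1, the IRS protein best known from muscle and fat, was low in islets. It had 2.22, 2.15 and 2.20 FPKM in the KO libraries, against 1.51, 1.63 and 2.01 FPKM in the WT libraries. The groups did not overlap, but the difference did not pass the threshold (log2 difference 0.24, SE 0.10, limma adjusted p = 0.093), with a 95% interval from 0.00 to 0.47.

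Irs2 lies on the minus strand at chr8:10984681-11008458 and Irs1 on the minus strand at chr1:82233101-82291416 (GENCODE M21, GRCm38). The promoter windows of this pair are shown because Irs2 had the largest log2 difference of the 10 genes and Irs1 is its relative. Each holds the 250 bases before and the 50 bases from the RefSeq start (GRCm38.p6), at chr8:11008880-11009179 for Irs2 and chr1:82291390-82291689 for Irs1, both on the minus strand. The 2 annotations differ on the start of Irs2. Its RefSeq start at 11008929 lies upstream of the GENCODE span, so its whole window is outside that span. Capitals mark TGTTTTG, which reads as CAAAACA on the other strand, letters described as an insulin response element that FoxO factors bind.
Irs2: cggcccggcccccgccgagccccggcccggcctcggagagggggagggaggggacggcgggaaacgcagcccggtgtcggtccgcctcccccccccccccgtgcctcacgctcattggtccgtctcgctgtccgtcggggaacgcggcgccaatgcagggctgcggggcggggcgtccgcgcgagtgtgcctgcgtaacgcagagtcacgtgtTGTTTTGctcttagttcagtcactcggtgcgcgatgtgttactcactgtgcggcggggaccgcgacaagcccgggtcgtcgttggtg
Irs1: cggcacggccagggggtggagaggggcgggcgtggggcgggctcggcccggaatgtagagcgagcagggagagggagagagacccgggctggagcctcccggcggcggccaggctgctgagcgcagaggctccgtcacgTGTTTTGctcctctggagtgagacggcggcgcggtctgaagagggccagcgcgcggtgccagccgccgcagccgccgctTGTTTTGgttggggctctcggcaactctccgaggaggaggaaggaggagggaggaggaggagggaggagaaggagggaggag
The letters occurred 1 time in the Irs2 window, starting 37 bases before the RefSeq start. In the Irs1 window they occurred 2 times, starting 111 and 32 bases before it. Of 32851 RefSeq promoter windows of this length, 6.28% held them at least 1 time and 0.493% at least 2 times. The other 7 genes with a window held none of these letters in any of their windows. Other letters that FoxO factors bind, TGTTTAC, which read as GTAAACA on the other strand, were in 3.65% of all windows. They were 1 time in 1 of 2 Akt1 windows, and in no other window of these 9 genes, those of Irs2 and Irs1 included. The full cAMP response element TGACGTCA, found in 1.79% of all windows, was in no window of these 9 genes, and its part TGACG, which reads as CGTCA on the other strand, in 20.8% of all windows, was 1 time in the Irs1 window, in 2 of 4 Akt2 windows, in 1 of 2 windows each of Grb10 and Pik3r1, 3 times in the Igf2r window, and in none of Irs2, Foxo1, Igf1r or Akt1. Insr is named only.

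Of the 3 receptors, Insr and Igf1r did not pass the threshold. Insr, the insulin receptor (chr8:3122061-3279617, minus strand), had 5.96, 6.38 and 7.52 FPKM in the KO libraries, against 5.41, 5.71 and 6.01 FPKM in the WT libraries. KO replicate 1 lay inside the WT range, and the log2 difference of 0.18 did not pass (SE 0.09, limma adjusted p = 0.15, 95% interval -0.03 to 0.39). Igf1r, the IGF1 receptor (chr7:67952827-68233668, plus strand), had 5.38, 6.48 and 6.09 FPKM in the KO libraries, against 7.04, 5.71 and 7.17 FPKM in the WT libraries. The groups overlapped through WT replicate 2, with a log2 difference of -0.13 (SE 0.10, limma adjusted p = 0.34, 95% interval -0.37 to 0.11).

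Igf2r was the receptor that rose. It encodes the cation-independent mannose 6-phosphate receptor, which carries IGF2 to lysosomes rather than signalling, and it is imprinted in mouse, with expression from the maternal copy. Igf2r (chr17:12682406-12769664, minus strand) had 12.2, 13.6 and 15.9 FPKM in the KO libraries, against 8.36, 9.41 and 9.47 FPKM in the WT libraries. Every KO library lay above every WT library, and the lowest KO value was in the library with the fewest acinar transcripts. The log2 difference was 0.56 (SE 0.10, limma adjusted p = 0.0065), and 0.39 in KO replicate 1 alone (limma adjusted p = 0.03). It was 0.30 when sums outside the acinar markers were made equal, and did not pass (limma adjusted p = 0.26). The antisense RNA Airn, which runs over Igf2r in the opposite direction and shares 0 exon bases with it, had 5.76, 3.09 and 6.28 FPKM in KO libraries, against 6.19, 5.95 and 6.46 FPKM in WT libraries (limma adjusted p = 0.27). Airn was named after its values were seen.

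Grb10 and Pik3r1 act at the receptor and IRS complexes. Grb10, an imprinted adaptor that binds the insulin receptor and dampens its signal (chr11:11930508-12038683, minus strand), had 9.18, 10.1 and 10.4 FPKM in the KO libraries, against 8.02, 8.93 and 7.68 FPKM in the WT libraries. It rose by a log2 difference of 0.24 (SE 0.08, limma adjusted p = 0.041). The lowest KO and the highest WT value were 0.248 FPKM apart. The adjusted p in limma was 0.1, 0.096, 0.13 and 0.14 without KO replicate 2, KO replicate 3, WT replicate 1 and WT replicate 3, and 0.063 with the replicate block. With equal sums outside the acinar markers the log2 difference of Grb10 was -0.005.

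Pik3r1 encodes the p85 alpha regulatory subunit that brings PI3-kinase to phosphorylated IRS proteins. Pik3r1 (chr13:101680563-101768217, minus strand) had 16.7, 15.1 and 16.7 FPKM in the KO libraries, against 23.6, 26.3 and 25.4 FPKM in the WT libraries. The 3 KO values were close together and all below the WT values. The means were 16.2 ± 0.952 FPKM in KO and 25.1 ± 1.36 FPKM in WT (SD, n = 3 each). Pik3r1 fell with a log2 difference of -0.60 (SE 0.07, limma adjusted p = 0.0013), with -0.56 for KO replicate 1 alone (limma adjusted p = 0.0068).

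Of the Akt kinases, Akt2 rose and Akt1 did not pass. Akt1, the widely expressed form (chr12:112653821-112674884, minus strand), had 45.0, 47.6 and 50.3 FPKM in the KO libraries, against 49.2, 47.2 and 49.5 FPKM in the WT libraries. The groups overlapped (log2 difference -0.03, SE 0.06, limma adjusted p = 0.7, 95% interval -0.17 to 0.11). Akt2, the form tied to glucose handling (chr7:27591552-27640826, plus strand), had 39.1, 43.9 and 47.4 FPKM in the KO libraries, against 36.0, 34.9 and 36.0 FPKM in the WT libraries. Its KO values were all above the WT values, lowest in KO replicate 1 and highest in KO replicate 3, which were also the KO libraries lowest and highest in acinar transcripts. Akt2 lies 3.21 Mb from Ffar3 on the same chromosome, and Igf1r 37.1 Mb from it.

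The rise of Akt2 was a log2 difference of 0.28 (SE 0.08, limma adjusted p = 0.027). In KO replicate 1 alone it was 0.13 (limma adjusted p = 0.15), and in the fit with an acinar covariate 0.15 (limma adjusted p = 0.11). Its limma adjusted p was 0.07, 0.055, 0.082, 0.082 and 0.081 without KO replicate 2, KO replicate 3, WT replicate 1, WT replicate 2 and WT replicate 3, with log2 differences from 0.21 to 0.28. With equal sums outside the acinar markers the log2 difference of Akt2 was 0.00.

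Foxo1, the transcription factor that Akt holds out of the nucleus, rose. Foxo1 (chr3:52268336-52353221, plus strand) had 21.7, 23.4 and 22.4 FPKM in the KO libraries, against 14.2, 13.8 and 15.9 FPKM in the WT libraries. The KO values were all above the WT values and differed among themselves by less than 2 FPKM. The means were 22.5 ± 0.868 FPKM in KO and 14.7 ± 1.13 FPKM in WT (SD, n = 3 each; log2 difference 0.59, SE 0.07, limma adjusted p = 0.0015). In KO replicate 1 alone the difference was 0.54 (limma adjusted p = 0.012). It was 0.33 when sums outside the acinar markers were made equal, and did not pass (limma adjusted p = 0.26).

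**Figure D2:**
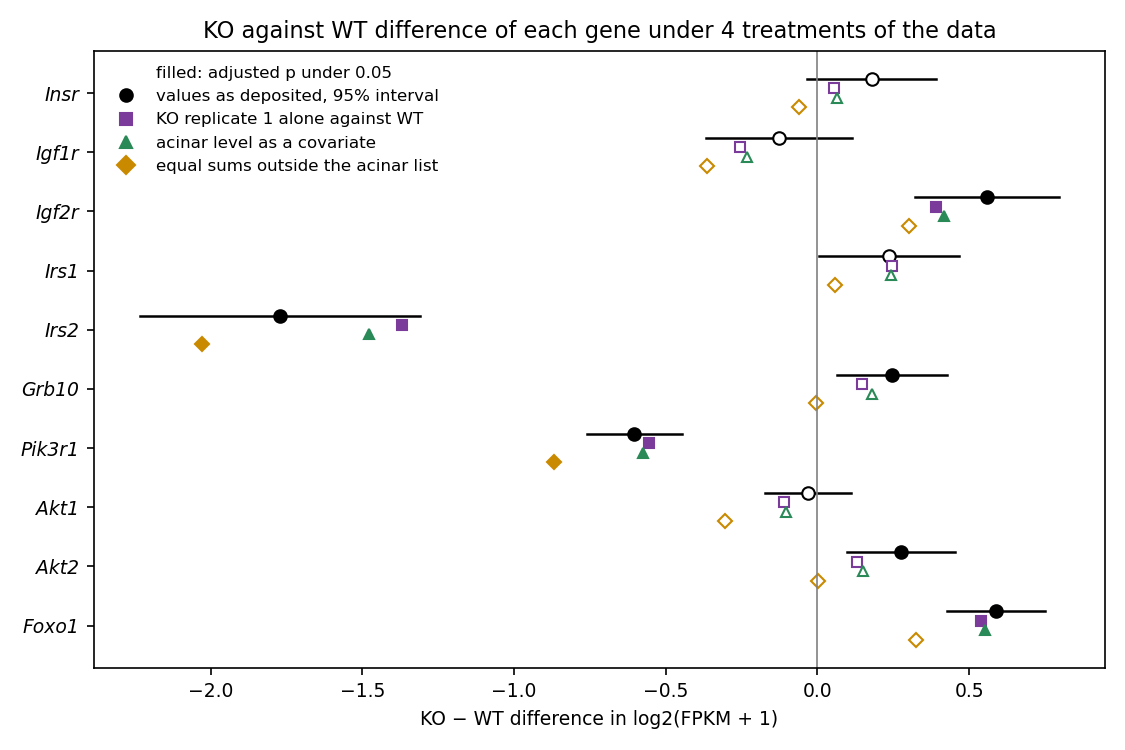
KO minus WT difference in log2(FPKM + 1) for each gene with the values as deposited (circles, line for the 95% interval), for KO replicate 1 alone (squares), with the acinar level as a covariate (triangles) and with equal sums outside the acinar markers (diamonds). Filled symbols have an adjusted p under 0.05. Irs2 and Pik3r1 are filled and below 0 in all 4, and Foxo1 and Igf2r are filled and above 0 in all but equal sums.

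FPKM are per length, so levels can also be set beside each other between genes. In the KO libraries the order of mean FPKM was Akt1, Akt2, Foxo1, Pik3r1, Irs2, Igf2r, Grb10, Insr, Igf1r and Irs1, at 47.6, 43.5, 22.5, 16.2, 13.9, 13.9, 9.91, 6.62, 5.98 and 2.19 FPKM. In the WT libraries it was Irs2, Akt1, Akt2, Pik3r1, Foxo1, Igf2r, Grb10, Igf1r, Insr and Irs1, at 49.4, 48.6, 35.7, 25.1, 14.7, 9.08, 8.21, 6.64, 5.71 and 1.72 FPKM. Irs2 was thus in rank 5 in KO and rank 1 in WT. Neighbours whose ranges over 3 libraries overlapped were Akt1 with Akt2, Pik3r1 with Irs2, Irs2 with Igf2r and Insr with Igf1r in KO. In WT they were Irs2 with Akt1, Igf2r with Grb10 and Igf1r with Insr.

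Linear ratios of related genes within a library do not depend on how the libraries were scaled. The FPKM of Irs2 over Irs1 was 8.27, 5.71 and 5.05 in the KO libraries, against 34.6, 24.4 and 27.8 in the WT libraries, so Irs2 was the more abundant IRS transcript in all 6. Its log2 ratio was 2.01 lower in KO, on the log2(FPKM + 1) scale of these tests. The Pik3r1 to Pik3ca ratio, of the regulatory to the alpha catalytic subunit of PI3-kinase, was 2.54, 2.02 and 2.42 in the KO libraries, against 4.41, 5.11 and 4.53 in the WT libraries.

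The Akt2 to Akt1 ratio was 0.870, 0.923 and 0.943 in the KO libraries, against 0.732, 0.740 and 0.728 in the WT libraries. In each of these 3 ratios the groups did not overlap. For each the exact two-sided permutation test gave p = 0.1, the smallest that 3 against 3 allows (0.13 adjusted over the 4 ratios). The Insr to Igf1r ratio was 1.11, 0.984 and 1.24 in the KO libraries, against 0.768, 1.001 and 0.838 in the WT libraries, which overlap (exact permutation p = 0.2, adjusted over the 4 ratios 0.2). The log2 differences of the ratios of Pik3r1 to Pik3ca, Akt2 to Akt1 and Insr to Igf1r were -0.93, 0.31 and 0.31.

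**Figure D3:**
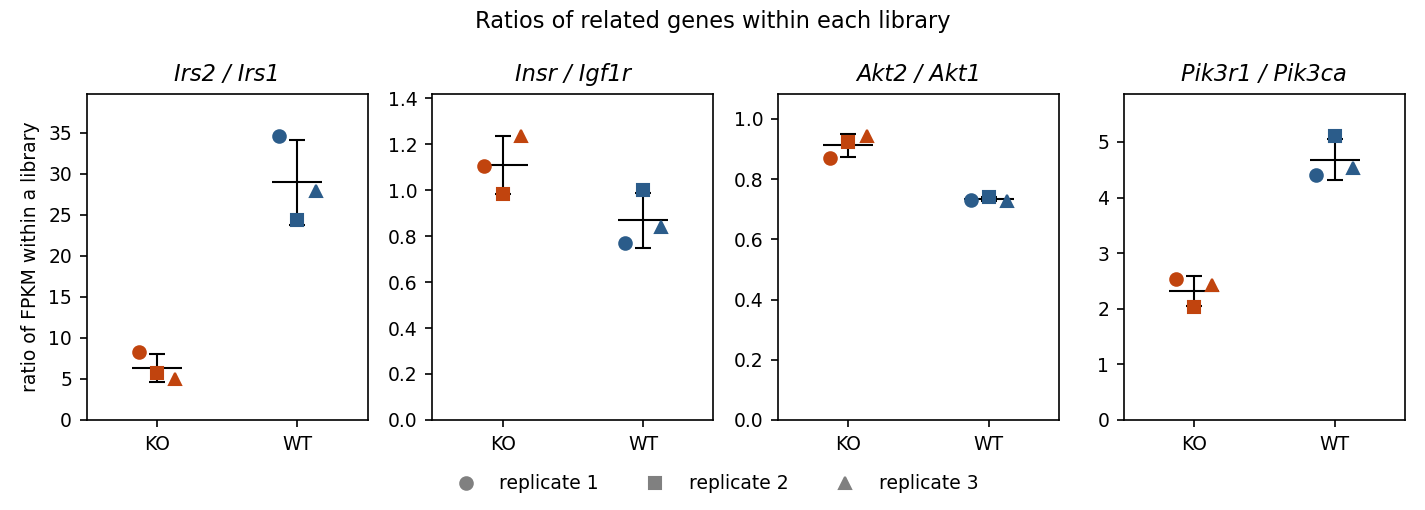
Ratio of the FPKM of 2 related genes within each library, KO left and WT right, on linear axes from 0. Points are libraries and bars the mean and SD of 3. The Irs2 to Irs1 ratio lies between 5.05 and 8.27 in KO and between 24.4 and 34.6 in WT, and the Akt2 to Akt1 ratio between 0.870 and 0.943 in KO and between 0.728 and 0.740 in WT.

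The rest of the pathway was read from lists of 64 genes, with FoxO target genes apart. Of 53 genes read from the fit, 16 rose, 9 fell and 28 did not pass, which is 47.2% called beside 39.9% of all rows. Their median log2 difference was 0.07. In KO replicate 1 alone their median log2 difference was 0.04. Without WT replicate 1, 14 were called in all, beside 2481 of all 11669 rows. Without WT replicate 3, 12 were called, beside 2507 of all rows. With equal sums outside the acinar markers 3 were called higher and 6 lower, beside 549 and 1332 of all rows.

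Among the ligands, insulin could not be compared. Ins1 was listed at 0, 43720 and 48330 FPKM in KO replicates 1, 2 and 3 and at 0 in each WT library. Ins2 was listed at 0 throughout, and such a 0 can be a failed estimate. Igf1 had 0.446, 3.36 and 7.43 FPKM in the KO libraries, against 0.711, 0.442 and 0.540 FPKM in the WT libraries (limma adjusted p = 0.11). It was high in the KO libraries that were high in acinar transcripts, and not in KO replicate 1. Without KO replicate 1 its limma adjusted p was 0.0021. Igf2 had 1.86, 1.47 and 1.84 FPKM in the KO libraries, against 1.75, 1.85 and 1.95 FPKM in the WT libraries (limma adjusted p = 0.59). Insrr, the orphan member of the insulin receptor family, had 66.9 to 74.4 FPKM in KO and 66.5 to 71.2 FPKM in WT (limma adjusted p = 0.58). Its mean FPKM was 70.4 in KO and 68.2 in WT, above the means of Insr and Igf1r in both groups.

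Of the 5 tested genes of IGF carriers, 3 fell and 0 rose, beside 19.6% of all rows lower and 20.3% higher. Igfals, the acid-labile subunit of the circulating IGF complex, fell to 11.3 ± 1.11 FPKM in KO, against 19.8 ± 1.69 FPKM in WT (SD, n = 3 each; log2 difference -0.76, limma adjusted p = 0.0016). Igfbp7 and Igfbp5 fell by 0.42 and 0.28 on the log2 scale (limma adjusted p = 0.033 and 0.047). Their calls were not firm. In the fit with an acinar covariate 1 carrier gene was called, and 1 with equal sums outside the acinar markers. Of all rows, 2895 and 1881 were called there. With the replicate block 2 carrier genes were called, beside 3865 of all rows. Without KO replicate 2, WT replicate 1, WT replicate 2 and WT replicate 3 the limma adjusted p of Igfbp7 was 0.076, 0.11, 0.071 and 0.1. For Igfbp5 it was 0.054 to 0.16 without any 1 of the 6 libraries.

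Other adaptors split, with 2 higher and 2 lower among 9 tested, which is 44.4% called beside 39.9% of all rows. Grb2, which links receptors to Ras, rose to 42.6 ± 2.40 FPKM in KO, against 33.9 ± 0.374 FPKM in WT (SD, n = 3 each; limma adjusted p = 0.0064). Shc1, another adaptor of that route, fell to 44.8 ± 1.503 FPKM in KO, against 54.8 ± 2.72 FPKM in WT (limma adjusted p = 0.011, and 0.052 without WT replicate 1). Grb14, a relative of Grb10 that inhibits the insulin receptor, fell to 10.2 ± 1.77 FPKM in KO, against 14.99 ± 0.632 FPKM in WT (limma adjusted p = 0.011). Grb10 and Grb14 thus passed in opposite directions, but not equally firmly. The call of Grb10 was lost under 10 of 18 alternatives and that of Grb14 under 0.

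Among 6 other tested PI3-kinase and Akt genes, 2 rose and 1 fell, which is 50% called beside 39.9% of all rows. The regulatory subunit Pik3r3 fell with Pik3r1, to 6.73 ± 0.539 FPKM in KO, against 10.1 ± 0.803 FPKM in WT (SD, n = 3 each; log2 difference -0.52, limma adjusted p = 0.004). The catalytic subunit Pik3ca rose to 6.98 ± 0.430 FPKM in KO, against 5.37 ± 0.226 FPKM in WT (log2 difference 0.32, limma adjusted p = 0.011, and 0.076 in KO replicate 1 alone). Pdpk1, the kinase that activates Akt, rose by 0.25 on the log2 scale (limma adjusted p = 0.03). Its limma adjusted p was 0.079, 0.073, 0.11 and 0.094 without KO replicate 2, KO replicate 3, WT replicate 1 and WT replicate 3.

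Of 12 tested brakes of the pathway, 6 rose and 0 fell, beside 20.3% of all rows higher and 19.6% lower, and their median log2 difference was 0.25 against -0.01 over all rows. Ptpn1, the phosphatase PTP1B that dephosphorylates the insulin receptor, rose to 30.7 ± 2.56 FPKM in KO, against 20.6 ± 0.168 FPKM in WT (SD, n = 3 each; log2 difference 0.55, limma adjusted p = 0.0018). Its relative Ptpn2 rose by 0.28 on the log2 scale (limma adjusted p = 0.013, and 0.056 without WT replicate 3). Trib3, a pseudokinase reported to bind Akt and also induced by stress, rose to 37.7 ± 10.6 FPKM in KO, against 20.8 ± 4.07 FPKM in WT (limma adjusted p = 0.022). Its limma adjusted p was 0.057 without WT replicate 1, 0.076 without WT replicate 3 and 0.059 with the replicate block. The count of 6 was 3 without KO replicate 2, 2 without WT replicate 1, 3 without WT replicate 2 and 1 without WT replicate 3, and with equal sums outside the acinar markers it was 1. It was 2 in the fit with an acinar covariate, and 3 with the replicate block or quantile normalization. Over all rows 4657 were called with the values as deposited. Without KO replicate 2, WT replicate 1, WT replicate 2 and WT replicate 3 these were 3461, 2481, 3249 and 2507. With equal sums, the covariate, the block and quantile normalization they were 1881, 2895, 3865 and 4830.

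Genes of blood cells were on these lists as well. Inpp5d, the phosphatase SHIP1 of blood cells, had 1.66, 4.42 and 0.867 FPKM in the KO libraries, against 0.575, 0.432 and 0.513 FPKM in the WT libraries (limma adjusted p = 0.06). Pik3cd, the PI3-kinase subunit of leukocytes, was under the filter, with 1.22, 1.94 and 0.514 FPKM in KO replicates 1, 2 and 3, against 0.354, 0.281 and 0.279 FPKM in the WT libraries. Both were named after their values were seen. The B cell marker Ms4a1 had 3.37, 6.32 and 0.311 FPKM in KO replicates 1, 2 and 3, and the T cell marker Cd3e had 1.298, 2.01 and 0.127 FPKM there, while both were listed at 0 in each WT library. The B cell marker Cd79a had 15.8, 27.9 and 7.60 FPKM in the KO libraries, against 6.60, 7.42 and 6.74 FPKM in the WT libraries. Ptprc, the common leukocyte antigen, had 3.03, 6.64 and 0.577 FPKM in the KO libraries, against 0.902, 0.671 and 1.071 FPKM in the WT libraries, so that KO replicate 3 lay below each WT library. Inpp5d, Pik3cd and these markers were all highest in KO replicate 2 and lowest of the KO libraries in KO replicate 3. The part of such cells in these values was not tested.

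The FoxO relatives of Foxo1 did not rise with it. Of 3 tested, 2 fell, 0 rose and 1 did not pass, beside 19.6% of all rows lower and 20.3% higher. Foxo6 fell to 8.78 ± 0.302 FPKM in KO, against 11.8 ± 0.845 FPKM in WT (SD, n = 3 each; limma adjusted p = 0.0062). Foxo3 had 12.5, 11.9 and 19.0 FPKM in the KO libraries, against 19.6, 27.4 and 24.4 FPKM in the WT libraries, and fell by 0.70 on the log2 scale (limma adjusted p = 0.025). Its limma adjusted p was 0.077, 0.082 and 0.083 without KO replicate 2, WT replicate 2 and WT replicate 3.

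In the mTOR and Gsk3 branch 6 of 15 genes rose and 1 fell, which is 46.7% called beside 39.9% of all rows. Eif4ebp1, the translation repressor that mTOR phosphorylates, rose most of these, to 59.3, 78.0 and 94.1 FPKM in the KO libraries, against 23.9, 26.1 and 20.6 FPKM in the WT libraries (log2 difference 1.65, limma adjusted p = 0.00095). Rictor, a subunit of the mTOR complex that phosphorylates Akt, rose to 6.26 ± 0.394 FPKM in KO, against 3.93 ± 0.209 FPKM in WT (SD, n = 3 each; limma adjusted p = 0.0021). Deptor, an inhibitor of mTOR, rose to 23.1 ± 2.46 FPKM in KO, against 14.7 ± 0.788 FPKM in WT (limma adjusted p = 0.0027). Of the genes of this branch, 5 were called without WT replicate 1 and 4 without WT replicate 3, beside 2481 and 2507 of all rows. With equal sums outside the acinar markers 1 was called higher and 1 lower, beside 549 and 1332 of all rows.

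Known FoxO target genes did not move one way. Of 19 tested, 5 rose, 2 fell and 12 did not pass, or 36.8% called beside 39.9% of all rows, with a median log2 difference of 0.12. Cdkn1a, the cell cycle inhibitor p21 and also a target of p53, rose to 106 ± 8.25 FPKM in KO, against 48.9 ± 3.43 FPKM in WT (SD, n = 3 each; log2 difference 1.11, limma adjusted p = 0.0004). Ccng2, an atypical cyclin, rose to 25.4 ± 3.35 FPKM in KO, against 13.7 ± 0.637 FPKM in WT (limma adjusted p = 0.0013). Sesn3 fell to 17.6 ± 1.78 FPKM in KO, against 30.6 ± 0.638 FPKM in WT (limma adjusted p = 0.00093). In all 11 were called without KO replicate 1, and 4 without WT replicate 1, without WT replicate 3 or with equal sums outside the acinar markers. Of all rows, 5727, 2481, 2507 and 1881 were called under these settings, in that order.

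**Figure D4:**
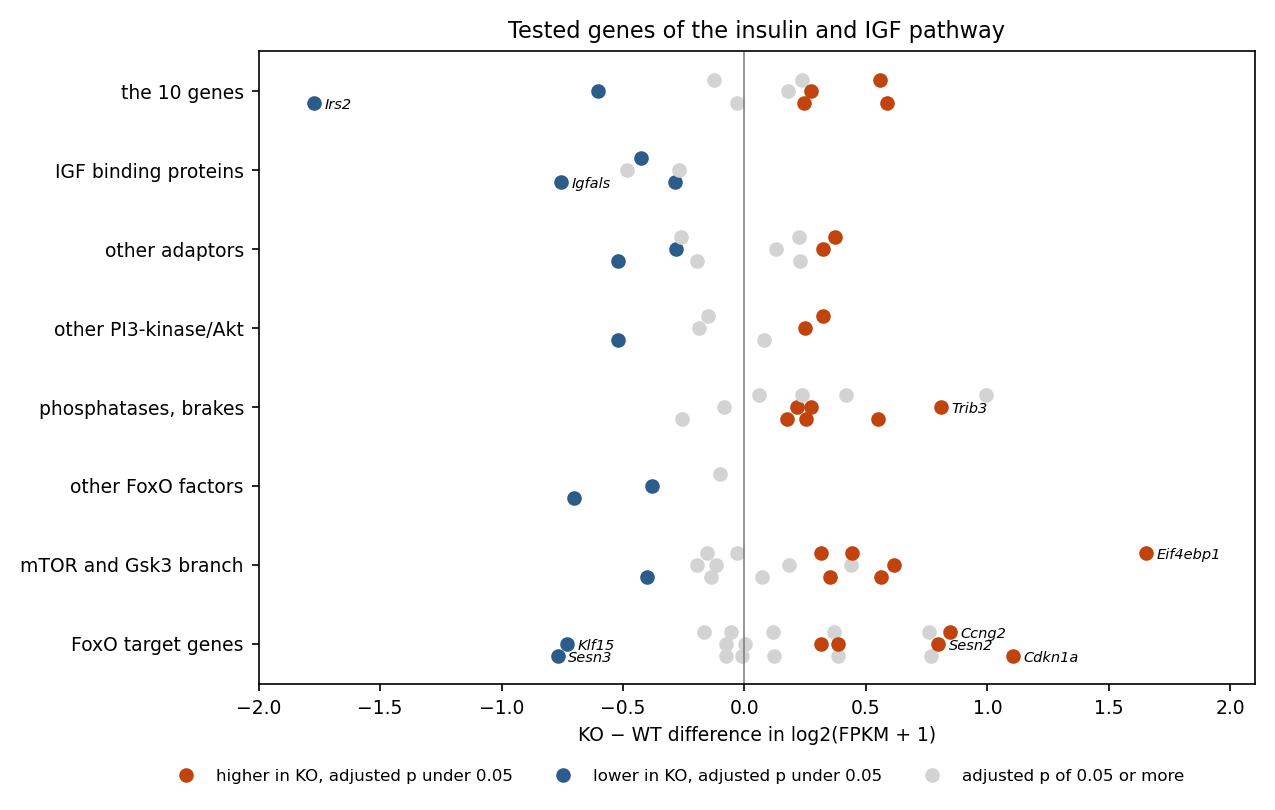
KO minus WT difference in log2(FPKM + 1) of each tested gene, by list, with the 10 genes at the top. Each point is a gene, and its height within a list carries no value. Of the 10 genes 4 are called higher and 2 lower, and Irs2 at -1.77 and Eif4ebp1 at 1.65 lie at the ends of the axis. Ligands are not drawn.

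The transcripts whose pattern over the 6 libraries was most like that of Irs2, by Pearson's r of log2(FPKM + 1), were Fos, Fam100b, Actl6a, Sipa1l1 and Zfp956, with r of at least 0.997. These values describe 6 points and include the gap between KO and WT, and 903 of 11659 other tested rows had an r over 0.95. Fos, the AP-1 subunit induced within minutes of a stimulus, had 137, 87.2 and 81.3 FPKM in the KO libraries, against 382, 292 and 398 FPKM in the WT libraries. KO replicate 1 was the highest KO library and WT replicate 2 the lowest WT library for Fos, as for Irs2. A high KO replicate 1 was not particular to these genes. The sum over the 7 alpha cell markers was 13620, 9308 and 7236 FPKM in KO replicates 1, 2 and 3. In WT replicates 1, 2 and 3 that sum was 19880, 24090 and 20850 FPKM, so there WT replicate 2 was the highest. Of 12 tested immediate early and stress genes, which a handling or isolation step can also induce, 12 fell and 0 rose. Of all rows tested, 19.6% were called lower and 20.3% higher. Among the 12 were Nr4a1, Dnajb1 and Fosb with log2 differences of -2.77, -2.28 and -2.62 (limma adjusted p = 0.00037, 0.00038 and 0.00046). The sum over the 12 genes was 1519, 1138 and 1104 FPKM in the KO libraries, against 4868, 4204 and 5161 FPKM in the WT libraries. The part of such induction in the Irs2 values was not tested.

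Some reads could belong to overlapping genes. In GENCODE M21 the exons of Irs1 share 2822 bases with Gm9747, those of Foxo1 674 bases with Gm20402 and those of Irs2 162 bases with 9530052E02Rik, each on the opposite strand. With no strand setting given in the sources used here, reads from these stretches cannot be told apart. The row of 9530052E02Rik had 0.362, 0.274 and 0.489 FPKM in the KO libraries, against 1.015, 0.851 and 0.926 FPKM in the WT libraries, far below Irs2.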

How the data were processed

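The deposited values were 1 table per library, taken to be FPKM. The files do not name the unit; it is taken from Cuffdiff, which writes FPKM, and from decimals with unlike sums. The tools of the authors were TopHat2 2.0.8b and Cuffdiff 2.1.1 with build mm10, per the submitters' processing notes. The sources used here give no annotation, strand setting or scaling. Values were used as deposited. Library totals in reads are unknown, which limits the precision of low values. Rows with a mean of at least 1 FPKM were tested on log2(FPKM + 1), a scale that understates changes of low genes, with limma 3.58.1 in R 4.3.3 (two-sided, trended prior, group as the only term). P-values were adjusted by Benjamini-Hochberg over 11669 rows, with a threshold of 0.05. Ratios within a library were tested by exact permutation. The limma p-values set the difference between groups against the spread between these pooled-islet libraries. That spread includes their differences in acinar content.

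The 10 genes and all lists were chosen with earlier results of these data known, so no test over a list was made. Named beside the 10 genes, Ffar3 and the ligands were, in each list, up to 3 called genes of smallest adjusted p, and the 5 genes most like the member of largest difference. Ins1, listed at 0 in 4 libraries, was given per library and its own test is not reported. It stayed in the fit and among the 10 tested beta cell markers. List symbols were matched by name or RefSeq synonym. Alternatives were a pseudocount of 0.1, a filter at 5 FPKM or none, other scalings, a robust prior, array weights, a replicate block, the mean level of acinar markers as a covariate, KO replicate 1 alone, and each library left out. Positions are from GENCODE M21 on GRCm38, which mm10 denotes. Promoter windows are from RefSeq on GRCm38.p6, with a window for 9 of the 10 genes. The fit was tried on simulated data with independent genes, few of them changed. These data have shared acinar shifts and many rows called, so that trial does not show how the fit does here. A lymphocyte marker and the sum over its list are not reported here.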

Additional observations from a re-analysis of the deposited data

How the results depend on the processing

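The falls of Irs2 and Pik3r1 passed under all 18 alternatives, with log2 differences from -2.03 to -1.37 and from -0.87 to -0.54. The rises of Foxo1 and Igf2r passed under all but equal sums outside the acinar markers, where they were 0.33 and 0.30 (limma adjusted p = 0.26 each). Insr, Igf1r, Irs1 and Akt1 passed under none of these, with Irs1 not tested at a mean of 5 FPKM. Of the 10 genes, 6 were called with the values as deposited, 2 with those equal sums, and 4 to 6 with 1 library left out. Among all rows, 4657 were called, against 1881 with those equal sums, 2895 in the fit with an acinar covariate, 3041 for KO replicate 1 alone and 2481 to 5727 with 1 library left out. The low counts came without WT replicate 1 and WT replicate 3, at 2481 and 2507.

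Some directions turned, among them those of the called rises of Grb10 and Pdpk1 and of Igf1, which was 1.27 with the values as deposited. With equal sums outside the acinar markers the log2 differences of Insr, Grb10, Insrr and Pdpk1 were -0.0605, -0.005, -0.229 and -0.0129. Akt1 was 0.039 with equal sums outside a wider acinar list and the insulin genes, a list chosen after seeing the data. With 1 library left out Akt1 lay between -0.0701 and 0.00952 and Igf2 between -0.105 and 0.000666. For KO replicate 1 alone Igf1 was at -0.11 and Igf2 at 0.0062. The cause was not tested. Of 750 values of 42 named genes, 664 kept direction and side of the threshold, 74 lost the call, 3 gained it and 9 turned.

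No pairing by replicate number was seen: deviations of same-numbered libraries from their group means correlated at -0.21, -0.09 and 0.03. No KO library correlated best with its own number. Deviations from the mean of so few libraries constrain each other, and those of the KO libraries include their differences in acinar content. The check therefore cannot settle whether the samples were paired. With the replicate block 3865 rows and 5 of the 10 genes were called, and the ratios of Irs2 to Irs1, Insr to Igf1r, Akt2 to Akt1 and Pik3r1 to Pik3ca differed by -2.01, 0.31, 0.31 and -0.93 (exact sign-flip p = 0.25, 0.5, 0.25 and 0.25, with 0.25 the smallest that 3 pairs allow). With 1 library left out the ratio differences ranged from -2.20 to -1.87, 0.23 to 0.40, 0.28 to 0.34 and -0.99 to -0.84.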
